A study of Rattus norvegicus with 15 samples.

Results

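The comparison is between kidney cortex of rats kept on a salt-deficient diet, with 0.01% NaCl, and kidney cortex of rats kept on a normal-salt diet, with 0.4% NaCl. Its members were taken from the diet label of each library, which gave 5 libraries per diet, or 10 of the 15 libraries of the series. The other 5 libraries, from a 4% NaCl diet, entered the filter for enough reads, the scaling and the shared estimate of the spread. They are otherwise given as side values. All animals in all diets were PCK rats (PCK/CrljCrlPkhd1pck/CRL), which carry a mutation of Pkhd1, so no library comes from a rat without cystic disease. The rats started the Dyets chows at 6 weeks of age, ate them freely for 8 weeks and had no other treatment. Small RNA of the flushed, frozen cortex was sequenced, and reads were counted per mature microRNA (miRNA). According to the labels' protocol, RNA of 2 to 3 rats was pooled per library and each condition had 2 pools, while 5 samples are listed for each diet. No label ties a pool to a library. The p-values therefore rest on variation among the listed samples, some of which may be technical.

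The PCK rat models autosomal recessive polycystic kidney disease (ARPKD), in which loss of fibrocystin, the Pkhd1 product, leads to dilated tubules and cysts, mostly of collecting ducts. The collecting duct is also where the epithelial sodium channel ENaC takes up sodium under control of aldosterone, a hormone that rises when dietary salt is low. The title of the series links low salt to cyst growth through ENaC, and the comparison described here asks which miRNAs of the cystic cortex differ between the low and the normal salt intake. A miRNA guides its protein partner to messenger RNAs mainly through its seed, bases 2 to 8 from the 5′ end, and usually lowers their output. Both arms of a hairpin, and neighbouring hairpins cut from a common transcript, can yield mature miRNAs.

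The miRNAs on which the results turn are shown first, since many of them lie close together in the genome. Sequences are RefSeq's for the rat assembly GRCr8, which matched 357 of the 397 rat names tested. They are written 5′ to 3′ with the seed in capitals. The first set holds names that were higher on the 0.01% diet, from epithelial, stromal and injury-related miRNAs.
miR-205: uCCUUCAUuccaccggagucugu
miR-200c-3p: uAAUACUGccggguaaugaug
miR-141-3p: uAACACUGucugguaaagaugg
miR-9a-5p: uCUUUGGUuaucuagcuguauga
miR-187-3p: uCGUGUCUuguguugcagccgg
miR-31a-5p: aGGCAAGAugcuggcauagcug
miR-21-5p: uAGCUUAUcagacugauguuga
miR-143-3p: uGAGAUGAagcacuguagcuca

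The second set holds 5 called miRNAs of an X-linked cluster at chrX:137720985-137726219, in which every mature form shown has a seed of its own although the hairpins lie side by side. The seeds of miR-322-5p and miR-503-5p differ only at base 8.
miR-450a-5p: uUUUGCGAuguguuccuaaugu
miR-542-3p: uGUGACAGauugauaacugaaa
miR-351-5p: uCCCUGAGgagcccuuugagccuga
miR-503-5p: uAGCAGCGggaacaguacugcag
miR-322-5p: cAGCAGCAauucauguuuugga

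The third set holds names that were lower on the 0.01% diet. The last 5 of them lie together at chr6:134543460-134579828.
miR-592: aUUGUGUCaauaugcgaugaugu
miR-203a-3p: gUGAAAUGuuuaggaccacuag
miR-203b-3p: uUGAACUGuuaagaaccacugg
miR-653-5p: uUGAAACAuucucuacugaac
miR-489-3p: aUGACAUCacauauauggcagc
miR-184: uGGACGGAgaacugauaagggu
miR-194-5p: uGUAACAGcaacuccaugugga
miR-378a-3p: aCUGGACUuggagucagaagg
miR-29c-3p: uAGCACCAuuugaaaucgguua
miR-411-5p: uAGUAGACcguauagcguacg
miR-494-3p: uGAAACAUacacgggaaaccucu
miR-300-3p: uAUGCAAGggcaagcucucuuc
miR-381-3p: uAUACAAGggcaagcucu
miR-541-5p: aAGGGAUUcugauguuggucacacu

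Libraries held 5767723 to 7826411 counted reads on the 0.01% diet and 4789739 to 7384275 on the 0.4% diet, and the means did not pass an exact two-sided permutation test (p = 0.222, 5 libraries per diet). miR-10a-5p alone, a miRNA of a Hox gene cluster that is abundant in kidney, took 31.6 ± 5.84% of reads on 0.01% and 24.6 ± 5.44% on 0.4% (SD, n = 5 each), which missed the threshold in the same exact test (p = 0.0952, or 0.296 adjusted over 4 such measures). Leaving out a single library brought an unadjusted exact p under the threshold for total reads without library 2 of the 0.4% diet (p = 0.0317) and for the miR-10a-5p share without library 3 of the 0.4% diet (p = 0.0476). Levels are given as scaled CPM, read counts relative to library size after a scaling (TMM) that sets the bulk of names equal between libraries. A list of kidney-enriched miRNA families, without the miR-200 family, held 29 tested names. On this scale they summed to between 395170 and 693991 in the 0.01% libraries and to between 313052 and 508357 in the 0.4% libraries. Most of that sum was miR-10a-5p, 1 of the 29, which averaged 354508 on 0.01% and 243454 on 0.4%. The liver miRNA miR-122 was not among the names of the table. Erythrocyte (4 names), leukocyte (7), endothelial (5), striated muscle (5) and neuronal (6) marker miRNAs held no name that passed the test, and their summed levels overlapped between diets. Their median log2 differences were, in this order, -0.26, 0.36, 0.02, -0.42 and -0.22. Smooth muscle and stromal names, whose sums did not overlap, are described below.

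Of 600 miRNA names, 519 had enough reads to be tested, 397 of rat and 122 of other species. In edgeR's quasi-likelihood test 87 names, or 16.8% of those tested, had a Benjamini-Hochberg adjusted p under 0.05. On the 0.01% diet 40 names were higher (7.71% of those tested) and 47 were lower (9.06%). These are counts of names, which may hold fewer separate measurements. In 14 pairs of well-covered names the log2 ratio varied by an SD under 0.05 between libraries. Called names formed 3 of these pairs: bta-miR-3604 with miR-199a-3p, hsa-miR-574-3p with bta-miR-669, and miR-378a-3p with miR-3557-5p. Leaving out the less abundant name of each pair gave 83 calls, 38 higher and 45 lower. The levels of bta-miR-3601 and miR-542-5p were close too (29.9 and 30.3 scaled CPM on 0.01%). Values of the 5 and 5 libraries did not overlap for 75 names (14.5%), among them 28 of the 40 higher and 35 of the 47 lower names. Higher names were the more abundant, with a median level of 70.5 scaled CPM and a median log2 fold change of 0.83, while lower names had a median level of 10.9 scaled CPM and a median log2 fold change of -1.37. The median log2 fold change over all tested names was -0.0027. Scaling by library totals alone moved that median to -0.19, and 25 names were then higher and 79 lower. Under that scaling the calls of miR-21-5p, miR-145-3p, miR-147, miR-188-5p, both miR-199a arms, miR-351-5p, miR-450a-5p, miR-582-3p, miR-92b-3p and 5 names of other species were lost, while no called name changed sign. Together the higher names took 10.6 ± 1.16% of reads on 0.01% and 6.94 ± 1.02% on 0.4%, and the lower names took 2.23 ± 0.281% on 0.01% and 3.61 ± 0.355% on 0.4% (SD, n = 5 each; these shares describe names chosen by the same test).

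**Figure D1:**
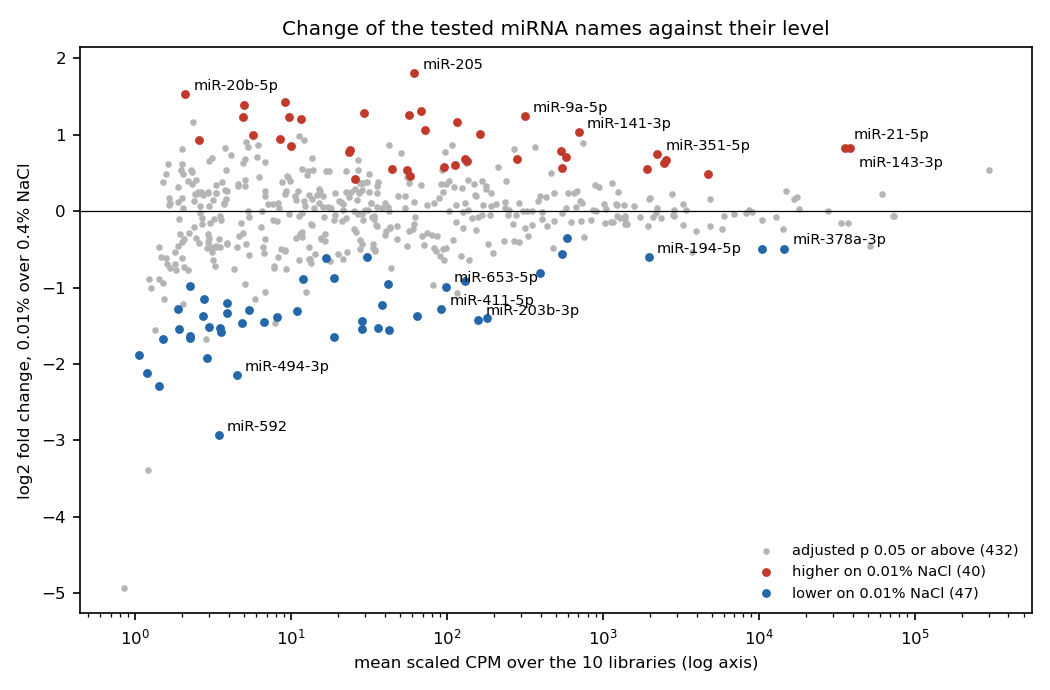
Each point is a tested miRNA name, with its mean level over the 10 libraries in scaled CPM on a log axis and its log2 fold change, 0.01% over 0.4% NaCl, on the other axis. The 40 higher names (red) reach up to 38762 scaled CPM for miR-143-3p, and 23 of the 47 lower names (blue) lie under 10 scaled CPM.

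Among epithelial miRNAs, miR-205 had the greatest increase of any called name and the miR-141/200c hairpins rose with it. miR-205 and the miR-200 family repress ZEB1 and ZEB2, transcription factors that turn off epithelial genes. miR-205 (chr13:107564588-107564610, minus strand) stood at 78.6, 98.7, 86.2, 40.1 and 179 scaled CPM in the 0.01% libraries, against 22.8, 43.6, 19.5, 29.7 and 21.3 in the 0.4% libraries. Only library 4 of the 0.01% diet fell within the range of the 0.4% libraries. The log2 fold change was 1.81 ± 0.40 (SE; edgeR adjusted p = 0.0056). Over the 3 diets in order of salt the mean was 96.5 ± 50.9, 27.4 ± 9.87 and 32.1 ± 13.6 scaled CPM (SD, n = 5 each).

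The calls of the miR-200 family came from 1 of its 2 loci. At chr4:159209540-159209989, all 3 tested names were higher. miR-200c-3p had 189, 155, 166, 88.3 and 208 scaled CPM in the 0.01% libraries and 94.5, 59.8, 96.5, 59.4 and 47.6 in the 0.4% libraries, a log2 difference of 1.17 ± 0.24 (adjusted p = 0.0030), and library 4 of the 0.01% diet alone lay within the 0.4% range. miR-141-3p, the more abundant neighbour, had 1092, 867, 891, 671 and 1187 scaled CPM on 0.01% and 600, 423, 567, 418 and 283 on 0.4%, with no overlap and a log2 difference of 1.04 ± 0.20 (adjusted p = 0.0028). Its other arm, miR-141-5p, rose by 1.23 ± 0.25 (log2, SE). The other locus of the family showed no such difference: miR-200b-3p averaged 2255 scaled CPM on 0.01% and 2200 on 0.4%, with a log2 difference of 0.04 ± 0.09 (adjusted p = 0.807), and miR-200a-3p and miR-429 stood at 0.09 ± 0.10 and 0.16 ± 0.11. Over the 8 tested family members, 3 rose and none fell, beside 7.71% of all tested names that rose, and the median log2 difference was 0.12. Whether the 2 loci differ in their response was not tested.

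In the other direction, all 4 tested names of the miR-203 locus (chr6:137020716-137020777) were lower. miR-203 is known for holding keratinocytes in their differentiated state by repressing p63. miR-203b-3p had 69.1, 88.0, 58.6, 110 and 104 scaled CPM in the 0.01% libraries and 281, 233, 252, 176 and 208 in the 0.4% libraries, a log2 difference of -1.42 ± 0.23 (adjusted p = 0.0014). miR-203a-5p had 7.08, 7.92, 5.99, 15.96 and 8.51 on 0.01% and 42.5, 29.1, 28.9, 20.7 and 22.3 on 0.4%, and miR-203b-5p had 35.4, 36.2, 30.3, 36.9 and 39.8 on 0.01% and 144, 90.3, 83.3, 71.9 and 72.5 on 0.4%. In these 3 names no 0.01% library reached the lowest 0.4% library. The log2 differences were -1.65 ± 0.30 for miR-203a-5p and -1.37 ± 0.25 for miR-203b-5p. miR-203a-3p, the abundant mature form, averaged 290 ± 34.4 on 0.01% and 506 ± 163 scaled CPM on 0.4% (SD, n = 5 each; log2 difference -0.80 ± 0.22, adjusted p = 0.018). The locus is read on both strands in the annotation: capitals mark here the 20 bases over which 2 of its names are reverse complements.
miR-203a-3p: GUGAAAUGUUUAGGACCACUag
miR-203b-5p: AGUGGUCCUAAACAUUUCAC
Nothing in the sources used here states whether counting used the strand. If it did not, reads of such partners cannot be told apart, so the 4 names may hold fewer than 4 separate measurements.

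Of 36 tested names of a list of injury and fibrosis miRNAs, 4 rose, the abundant miR-21-5p among them, and 2 fell. That share is close to the 16.8% of all tested names that were called and is no result about the list. The list median was 0.42 on the log2 scale, against -0.0027 over all tested names. miR-21-5p, which is induced in injured kidney and promotes cyst growth in mouse models, had 48380, 39658, 42114, 37921 and 61906 scaled CPM in the 0.01% libraries, against 29794, 23974, 24871, 33095 and 17313 in the 0.4% libraries. No library of the 0.01% diet was as low as any 0.4% library. Its log2 difference of 0.83 ± 0.26 (adjusted p = 0.036) passed in 8 of the 15 fits that each left out a library, with an adjusted p of up to 0.1004. The other arm, miR-21-3p, had 488, 308, 347, 411 and 811 scaled CPM on 0.01% and 320, 208, 273, 334 and 181 on 0.4%, and at 0.84 ± 0.29 it did not pass (adjusted p = 0.054).

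miR-31a-5p had 115, 98.7, 126, 74.97 and 79.0 scaled CPM on 0.01% and 52.5, 58.8, 45.2, 48.6 and 31.7 on 0.4%, again without overlap (log2 difference 1.06 ± 0.22, adjusted p = 0.0043). miR-34b-3p, of a locus that p53 and multiciliated cells are known to turn on, averaged 11.3 ± 1.53 scaled CPM on 0.01% and 5.84 ± 0.909 on 0.4% (log2 difference 0.95 ± 0.22, adjusted p = 0.0065). Its neighbours in the same host gene, Hoatz, had similar differences without passing: 0.93 ± 0.38 for miR-34b-5p, 0.81 ± 0.29 for miR-34c-5p and 0.91 ± 0.35 for miR-34c-3p. miR-147, which lies in the transcript of C3h15orf48 and is induced by inflammatory signals, had 13.01, 10.5, 14.5, 11.8 and 15.2 scaled CPM on 0.01% and 4.89, 5.604, 7.43, 10.3 and 7.80 on 0.4% (log2 difference 0.85 ± 0.25, adjusted p = 0.027). The lowest 0.01% library and the highest 0.4% library of miR-147 were 10.5 and 10.3, and its call was lost in 5 of the 15 fits that left out a library.

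Of the names of this list that fell, miR-382-5p belongs to the Dlk1-Dio3 region. The other, miR-29c-3p, which represses collagen genes, had 431, 447, 412, 471 and 463 scaled CPM on 0.01% and 580, 550, 581, 659 and 909 on 0.4%. The groups did not overlap, and the log2 difference was -0.56 ± 0.14 (adjusted p = 0.0097). Of the 6 tested miR-29 family names it was the only one that passed, a share near the 16.8% of all tested names. miR-29a-3p averaged 2795 on 0.01% and 2894 scaled CPM on 0.4%, with a log2 difference of -0.05 ± 0.08. In the miR-29c hairpin, the other arm showed -0.30 ± 0.28 and did not pass. At the same locus miR-3556b, a reverse complement of miR-29c-3p over 20 bases, showed -0.20 ± 0.11 and did not pass either. Whether counting told reads of these partners apart is not known.

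Of 7 tested smooth muscle and stromal names, 4 rose on the 0.01% diet and none fell, beside 7.71% of all tested names that rose, and the median log2 difference of the 7 was 0.64. Scaling by library totals alone left miR-143-3p as the only call of the 7. miR-143 and miR-145 maintain the contractile state of vascular smooth muscle, and miR-199a and miR-214 mark mesenchymal cells. miR-143-3p, the sixth most abundant name, had 50964, 39918, 41147, 44775 and 71195 scaled CPM in the 0.01% libraries and 33764, 30232, 35485, 21452 and 18690 in the 0.4% libraries. The 2 groups did not overlap, and the log2 difference was 0.83 ± 0.18 (adjusted p = 0.0051). miR-199a-5p had 743, 653, 657, 569 and 968 on 0.01% and 542, 441, 496, 443 and 277 on 0.4% (log2 difference 0.71 ± 0.23, adjusted p = 0.041), and this call was lost in 9 of the 15 fits that left out a library. miR-199a-3p differed by 0.64 ± 0.18 (adjusted p = 0.019) and miR-145-3p by 0.58 ± 0.18 (adjusted p = 0.035), calls that were lost in 2 and 7 of these fits. miR-145-5p, miR-143-5p and miR-214-3p had differences of 0.50 ± 0.25, 0.47 ± 0.27 and 0.64 ± 0.26 without passing. The summed level of the list ran from 44130 to 76354 scaled CPM in the 0.01% libraries and from 21038 to 38599 in the 0.4% libraries. Most of it was miR-143-3p, which averaged 49600 of a mean sum of 54152 on 0.01% and 27925 of 30868 on 0.4%. In bulk cortex, more cells of a type and more RNA per cell cannot be told apart, and the part of stromal cells in the other results was not tested.

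The X-linked cluster of miR-322, miR-503, miR-351, miR-542 and miR-450a was mostly higher on the 0.01% diet. miR-322 (the rat form of human miR-424) and miR-503 are known to slow the cell cycle by repressing cyclins and their kinases. Of 8 tested names at chrX:137720985-137726219, 6 were higher and none lower, beside 7.71% of all tested names that were higher. miR-322-5p had 653, 658, 784, 551 and 796 scaled CPM on 0.01% and 430, 368, 373, 487 and 332 on 0.4%, a log2 difference of 0.79 ± 0.17 (adjusted p = 0.0051). miR-351-5p had 2599, 2749, 3252, 2507 and 2831 on 0.01% and 1642, 1708, 1696, 1949 and 1315 on 0.4%, a log2 difference of 0.75 ± 0.18 (adjusted p = 0.0079). miR-542-3p had 197, 194, 209, 143 and 350 on 0.01% and 120, 102, 144, 102 and 76.1 on 0.4%, a log2 difference of 1.01 ± 0.24 (adjusted p = 0.0065). In the first 2 of these names no library of one diet reached the other, while library 4 of the 0.01% diet had slightly less miR-542-3p than the highest 0.4% library.

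Within the same cluster miR-503-5p differed by 1.23 ± 0.33, miR-542-5p by 0.80 ± 0.18 and miR-450a-5p by 0.57 ± 0.13 (log2, SE). The other arms miR-503-3p (0.52 ± 0.18, adjusted p = 0.054) and miR-322-3p (0.30 ± 0.14, adjusted p = 0.159) did not pass. The cluster is not the only X-linked locus with a call. Of 45 tested names with a single position on the X chromosome, 10 were higher (22.2%, beside 7.71% of all tested names) and none lower. These came from 5 loci, and 6 of the 10 were names of the cluster already described. miR-20b-5p, of a paralogue of the miR-17 cluster, whose miR-17 promotes cyst growth in mouse models, rose by 1.54 ± 0.37 at a mean of 2.11 scaled CPM, which is few reads. miR-224-5p, in the gene Gabre, had a mean of 13.5 ± 3.27 scaled CPM on 0.01% and 5.01 ± 1.39 on 0.4% (log2 difference 1.43 ± 0.32, adjusted p = 0.0052). miR-652-3p in Tmem164 and miR-188-5p in Clcn5 rose by 0.66 ± 0.15 and 0.43 ± 0.14, and the call of miR-188-5p was lost in 10 of the 15 fits that left out a library.

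**Figure D2:**
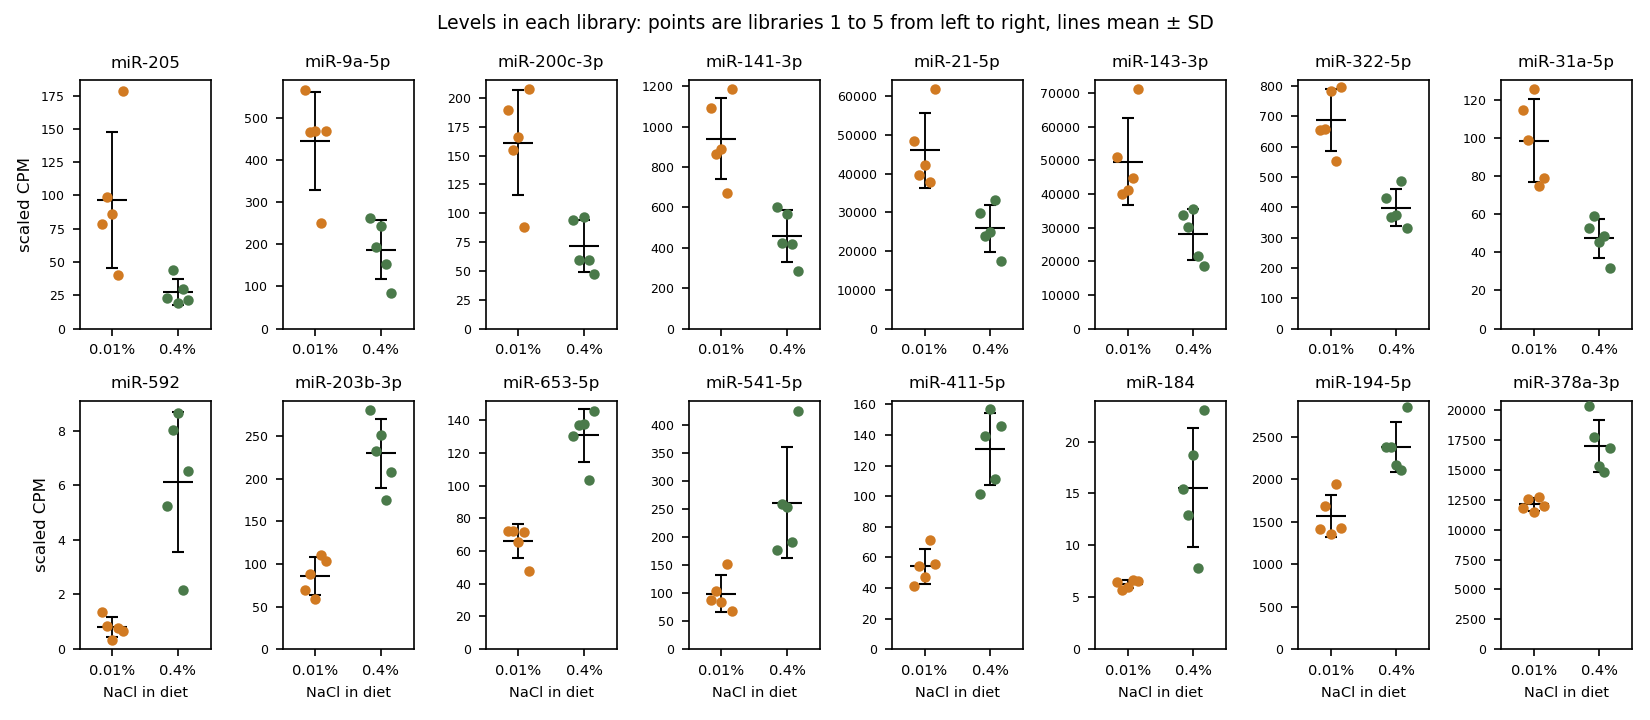
Level of 16 called miRNAs in each library, in scaled CPM from 0, with the 5 libraries of the 0.01% diet left of the 5 libraries of the 0.4% diet and lines for mean ± SD. In the upper row of higher names library 4 of the 0.01% diet is often the lowest of its diet, and in miR-592, at the lower left, all 0.01% libraries lie at or below 1.34.

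Further increases came from other loci. miR-9, a regulator of neural progenitors that also represses NFKB1, gave 2 called names. miR-9a-5p had 567, 468, 470, 252 and 469 scaled CPM on 0.01% and 262, 195, 242, 153 and 85.5 on 0.4% (log2 difference 1.25 ± 0.27, adjusted p = 0.0051). miR-9b-3p, an antisense name of the same hairpins, had 115, 71.0, 78.9, 38.4 and 101 on 0.01% and 42.9, 37.4, 48.8, 26.8 and 13.7 on 0.4% (log2 difference 1.26 ± 0.33, adjusted p = 0.013). In both names library 4 of the 0.01% diet alone overlapped with the 0.4% diet. Capitals mark here the 18 bases over which the names are reverse complements.
miR-9a-5p: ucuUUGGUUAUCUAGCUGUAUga
miR-9b-3p: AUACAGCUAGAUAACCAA
The log2 ratio of their reads varied by an SD of 0.16 over the 15 libraries, and separate expression of the antisense form was not tested.

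miR-187-3p (chr18:16005964-16005985, minus strand) had 54.5, 42.2, 39.1, 25.1 and 49.4 scaled CPM on 0.01% and 17.7, 17.7, 20.1, 18.8 and 11.5 on 0.4%. The groups did not overlap, and the log2 difference was 1.29 ± 0.23 (adjusted p = 0.0023). miR-879-5p had 17.2, 13.3, 15.5, 11.2 and 24.7 on 0.01% and 7.60, 5.87, 8.03, 7.79 and 6.01 on 0.4%, also without overlap (log2 difference 1.21 ± 0.24, adjusted p = 0.0028). At chr19:40888314-40888506 all 3 tested names of the miR-181c/d locus rose, by 0.68 ± 0.14 for miR-181d-5p, 0.61 ± 0.14 for miR-181c-3p and 0.55 ± 0.14 for miR-181c-5p. miR-181 miRNAs are best known from lymphocyte development.

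miR-592, in an intron of the glutamate receptor gene Grm8 (chr4:57470804-57470826, minus strand), had the greatest decrease. It stood at 1.34, 0.861, 0.333, 0.774 and 0.654 scaled CPM in the 0.01% libraries, against 5.25, 8.01, 8.63, 2.17 and 6.5025 in the 0.4% libraries. The groups did not overlap, and the log2 difference was -2.93 ± 0.40 (adjusted p = 0.00083), about 7.63-fold lower. The level is low, with a median of 9.5 reads over the 10 libraries, yet the call held in all 15 fits that left out a library. Over the 3 diets in order of salt the mean was 0.792 ± 0.366, 6.11 ± 2.57 and 8.02 ± 2.42 scaled CPM (SD, n = 5 each).

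A block of lower names came from the Dlk1-Dio3 region, an imprinted domain whose miRNAs are made from the maternal chromosome and are known from placenta, muscle and brain. Of 32 tested names between miR-379 and miR-410 (chr6:134543460-134579828), 27 were lower and none higher, beside 9.06% of all tested names that were lower, with log2 differences of the 32 between -2.28 and -0.89 and a median of -1.46. miR-541-5p, the most abundant, had 88.6, 103, 83.4, 152 and 67.6 scaled CPM on 0.01% and 177, 259, 254, 191 and 426 on 0.4% (log2 difference -1.40 ± 0.27, adjusted p = 0.0028). miR-411-5p had 41.5, 54.3, 47.4, 71.3 and 55.8 on 0.01% and 102, 140, 157, 111 and 146 on 0.4% (log2 difference -1.28 ± 0.23, adjusted p = 0.0023). In both, every 0.01% library lay below every 0.4% library. The 32 include miR-369-5p and miR-3578, reverse complements over 22 bases, and miR-409a-3p and miR-409b, over 20, so the 27 calls may hold fewer separate measurements.

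The same held for the moderately abundant members of the block. miR-409b had 20.7, 22.6, 16.5, 33.0 and 15.5 scaled CPM on 0.01% and 39.3, 68.2, 61.4, 50.0 and 101 on 0.4% (log2 difference -1.56 ± 0.28). miR-381-3p had 18.4, 18.9, 14.5, 24.5 and 16.7 on 0.01% and 41.5, 55.2, 59.4, 38.0 and 74.1 on 0.4% (-1.53 ± 0.24). For both, and for the next 2 names, the top values of each diet were those of library 4 on 0.01% and library 5 on 0.4%. miR-134-5p, which limits dendritic spine size in neurons, had 12.8, 16.5, 12.3, 19.1 and 12.9 on 0.01% and 24.6, 41.8, 45.6, 26.1 and 76.2 on 0.4% (-1.54 ± 0.31). miR-300-3p had 13.2, 16.4, 10.8, 23.4 and 12.6 on 0.01% and 27.2, 39.8, 45.8, 33.2 and 62.3 on 0.4% (-1.44 ± 0.28). Adjusted p-values of these 4 names lay between 0.0014 and 0.0029.

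The 2 greatest differences of the block were those of miR-377-3p, -2.28 ± 0.45, and miR-494-3p, -2.15 ± 0.43 (log2, SE), at low levels of 1.43 and 4.49 scaled CPM. Without library 5 of the 0.4% diet the difference of miR-494-3p was -1.56. Of the 15 fits that left out a library, the call of miR-379-3p held in 4, those of miR-379-5p and miR-376b-5p in 10 each, those of miR-485-5p and miR-496-3p in 11 each, and that of miR-382-5p in 14, being lost without library 5 of the 0.4% diet. miR-127-3p and miR-434-3p of the same domain, in another group of hairpins, had differences of 0.38 ± 0.32 and 0.34 ± 0.25 and did not pass. Neuronal marker miRNAs summed to between 381 and 507 scaled CPM in the 0.01% libraries and to between 414 and 692 in the 0.4% libraries, and striated muscle markers to between 118 and 162 on 0.01% and to between 156 and 222 on 0.4%. Their part in the result was not tested.

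**Figure D3:**
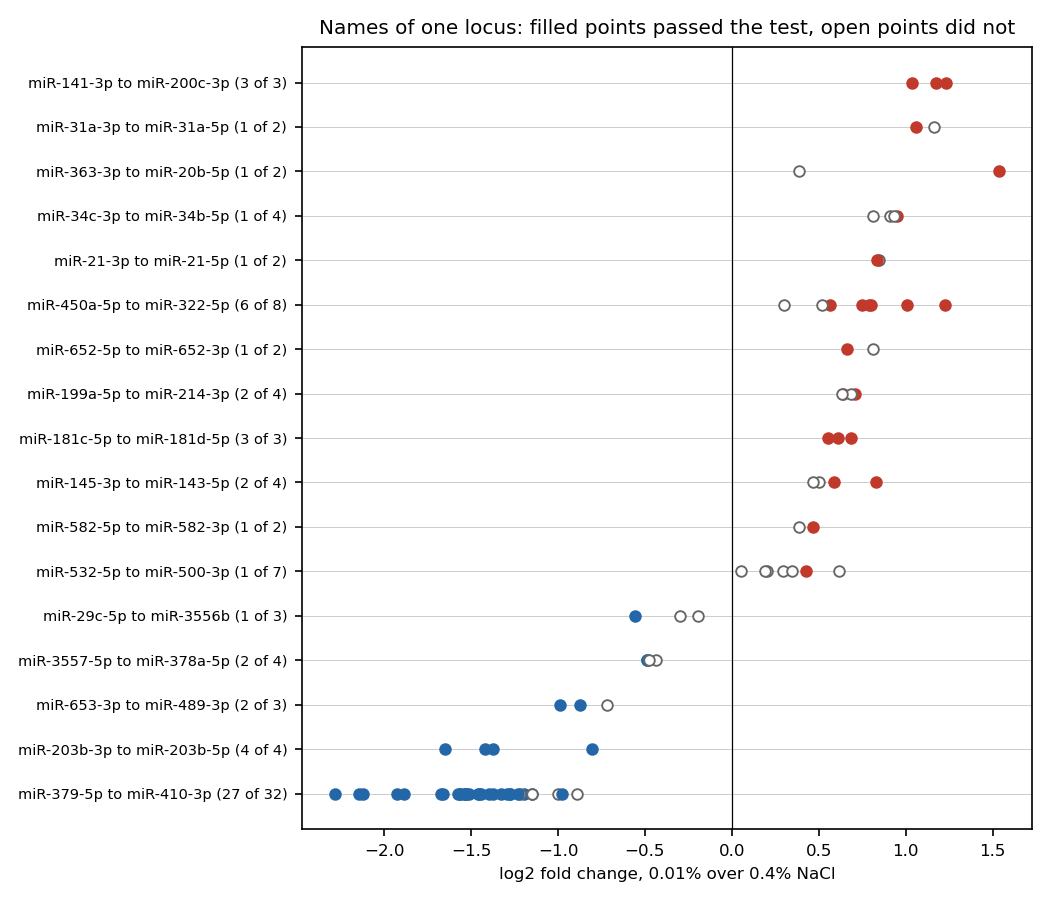
Each line is a locus with a call and at least 2 tested names, and each point is a name, placed by its log2 fold change, 0.01% over 0.4% NaCl. Filled points passed the test and open points did not. No locus holds calls in both directions, and the open points of these loci lie on the same side of 0 as the filled ones.

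Other decreases lay in introns of single genes or in single hairpins. In an intron of Calcr, the calcitonin receptor gene, miR-653-5p averaged 66.0 ± 10.6 scaled CPM on 0.01% and 131 ± 16.2 on 0.4% (log2 difference -0.99 ± 0.16, adjusted p = 0.0014), and miR-489-3p averaged 13.4 ± 1.33 on 0.01% and 24.5 ± 4.97 on 0.4% (-0.87 ± 0.16, adjusted p = 0.0023). Neither overlapped between diets. miR-184, known from cornea and lens, had 6.51, 5.68, 5.99, 6.66 and 6.54 scaled CPM on 0.01% and 15.4, 12.9, 18.7, 7.79 and 23.1 on 0.4%. The 0.01% libraries of miR-184 lay within about 1 scaled CPM of each other and below every 0.4% library (log2 difference -1.31 ± 0.34, adjusted p = 0.012), and the call was lost with limma-voom. miR-335, of the imprinted gene Mest, had 3.44, 5.17, 3.99, 5.27 and 4.75 on 0.01% and 7.24, 11.7, 10.2, 10.1 and 19.7 on 0.4% (-1.38 ± 0.26, adjusted p = 0.0025).

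Among abundant names the decreases were smaller. miR-194-5p, which together with miR-192 is under control of HNF1 factors in renal tubules, had 1419, 1683, 1359, 1949 and 1425 scaled CPM on 0.01% and 2386, 2386, 2167, 2105 and 2851 on 0.4%. The groups did not overlap (log2 difference -0.60 ± 0.14, adjusted p = 0.0065). It was the only 1 of 29 tested names of kidney-enriched families that passed, beside 16.8% of all tested names, and the median of the 29 was -0.08. That list includes miR-146a and miR-196 names and leaves out the miR-200 family, of which 3 of 8 tested names rose. miR-192-5p, among the 5 most abundant names, had 39988, 40569, 34255, 50460 and 54458 on 0.01% and 69099, 62873, 68124, 42740 and 57810 on 0.4%, with overlap and no call (-0.45 ± 0.18, adjusted p = 0.091). miR-378a-3p, from an intron of the metabolic coactivator gene Ppargc1b, averaged 12139 ± 525 on 0.01% and 17037 ± 2206 scaled CPM on 0.4% (-0.49 ± 0.09, adjusted p = 0.0028), and its antisense name miR-3557-5p, which shares 21 bases as a reverse complement, moved by -0.49 ± 0.09 too. miR-107-3p, from Pank1, differed by -0.36 ± 0.11 (adjusted p = 0.039), and its call was lost in 6 of the 15 fits that left out a library.

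Lists of miRNAs tied to the disease and to salt handling held calls in both directions. Of 30 tested names linked to cystic kidney disease, 6 rose and 1 fell (median log2 difference 0.22), the 6 being miR-20b-5p, miR-21-5p, miR-31a-5p, miR-199a-3p, miR-199a-5p and miR-200c-3p. The miR-199a names are arms of a common hairpin, and both lost their calls with library totals alone, as did miR-21-5p. The level of miR-20b-5p was low, with a mean of 2.11 scaled CPM. In the miR-17 clusters 2 of 19 tested names rose, miR-20b-5p and miR-92b-3p, and none fell (median 0.36). The call of miR-92b-3p held in 4 of the 15 fits that left out a library and was lost with library totals, upper-quartile factors and limma-voom. Of 41 tested names linked to sodium transport or the renin-aldosterone system, 3 rose (miR-9a-5p, miR-21-5p and miR-31a-5p) and 4 fell (miR-194-5p, miR-335, miR-379-3p and miR-379-5p), with a median of 0.33. The calls of miR-379-3p and miR-379-5p were among those lost with a library left out. No name of the let-7 family (17 tested, median 0.01) or of the miR-30 family (11 tested, median -0.14) passed. Those counts are set beside 16.8% of all tested names called, 7.71% higher and 9.06% lower. The counts of the sodium and renin-aldosterone list and of the miR-17 clusters lie near these shares and are no result about those lists.

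Calls were also counted by position. Of the tested rat names, 336 had a single position and fell into 149 loci when names within 10 kb were joined. The 28 higher names with a single position came from 17 loci, and the 40 lower names from 9 loci, and 0 loci held both directions. Of the 40 lower names, 27 lay in the block between miR-379 and miR-410. Arms and antisense names of a hairpin share a locus in these counts. Whether calls shared loci more often than tested names did was not tested. Both arms of 112 hairpins were tested. In 10 hairpins both arms passed, always in a common direction, and in 18 hairpins 1 arm passed with the other arm of equal sign. Across the 112 hairpins the log2 differences of the arms had a Spearman correlation of 0.82 and a Pearson correlation of 0.87, as a description, since arms share libraries and a hairpin.

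**Figure D4:**
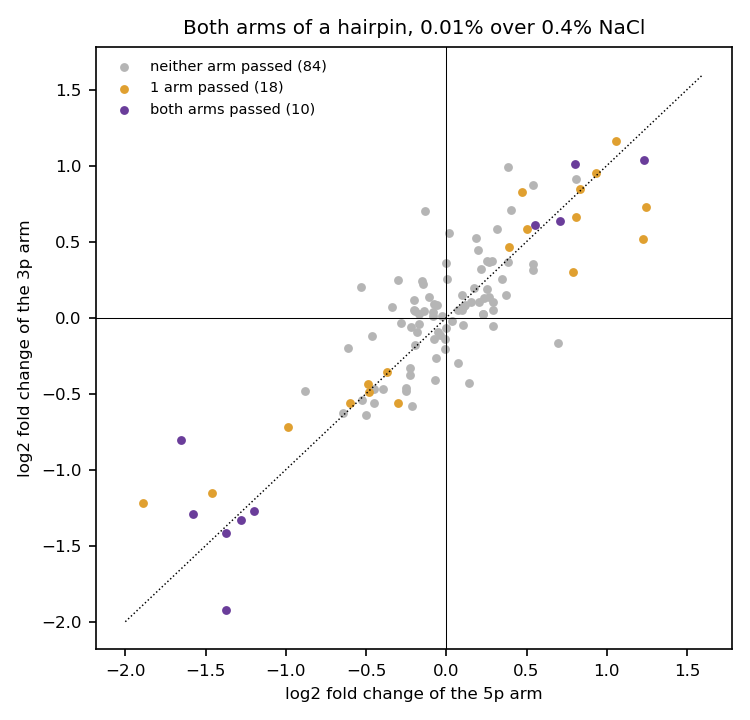
Each point is a hairpin with both arms tested, with the log2 fold change (0.01% over 0.4% NaCl) of its 5p arm across and of its 3p arm upwards, and the dotted line marks equal change. The 10 hairpins with both arms called (purple) and the 18 with 1 called (orange) lie in the quadrants where both arms have a common sign.

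Of 295 seeds among the tested rat names, 35 were shared by at least 2 tested names. Of these 35 seeds, 9 included a called name, and only the seed of miR-181 included 2, beside 16.8% of all tested names called. With so few shared seeds, these counts are no result about seed families. The ratio of a called name to its most abundant uncalled seed partner was compared in 10 pairs within each library, a comparison added after seeing the data. To each level 0.5 scaled CPM was added first, so scaling between libraries cancels only for names well above that. For low names, such as miR-20b-5p at a mean of 2.11 scaled CPM, the added value makes the difference smaller. For 5 pairs both sequences are given here, with the shared seed in capitals.
miR-322-5p: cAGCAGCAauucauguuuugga
miR-16-5p: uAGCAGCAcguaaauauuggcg
miR-351-5p: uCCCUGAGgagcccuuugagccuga
miR-125a-5p: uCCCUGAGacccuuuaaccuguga
miR-20b-5p: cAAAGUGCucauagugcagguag
miR-93-5p: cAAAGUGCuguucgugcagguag
miR-29c-3p: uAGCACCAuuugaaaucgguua
miR-29a-3p: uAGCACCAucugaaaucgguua
miR-107-3p: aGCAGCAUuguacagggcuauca
miR-103-3p: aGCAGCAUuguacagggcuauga

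The ratio differed between diets in 8 of the 10 pairs (exact two-sided permutation tests with Benjamini-Hochberg adjustment over the 10, where 252 splits allow no p below 0.0079). The called names were chosen by the diet difference and the partners for lacking a call, in the same libraries. A difference in the ratio was therefore largely set in advance, and these p-values are no separate evidence. The ratios describe how far the partner failed to move with the called name. The log2 ratio of miR-322-5p to miR-16-5p was -3.73 ± 0.187 on 0.01% and -4.53 ± 0.177 on 0.4% (SD, n = 5 each), and miR-16-5p itself stood at 9080 on 0.01% and 9139 scaled CPM on 0.4%. For miR-351-5p over miR-125a-5p the log2 ratio was -0.716 ± 0.160 on 0.01% and -1.66 ± 0.308 on 0.4%, and for miR-20b-5p over miR-93-5p the difference of log2 ratios was 1.07. Ratios to partners that differ by a single base were lower on 0.01%, by -0.49 for miR-29c-3p over miR-29a-3p and by -0.43 for miR-107-3p over miR-103-3p. Reads of such near-identical names can be split between them in counting, which makes both values uncertain. miR-34b-3p over miR-34c-3p differed by 0.06 (exact p = 0.762) and miR-181c-5p over miR-181a-5p by 0.42 (exact p = 0.079), so neither pair passed.

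**Figure D5:**
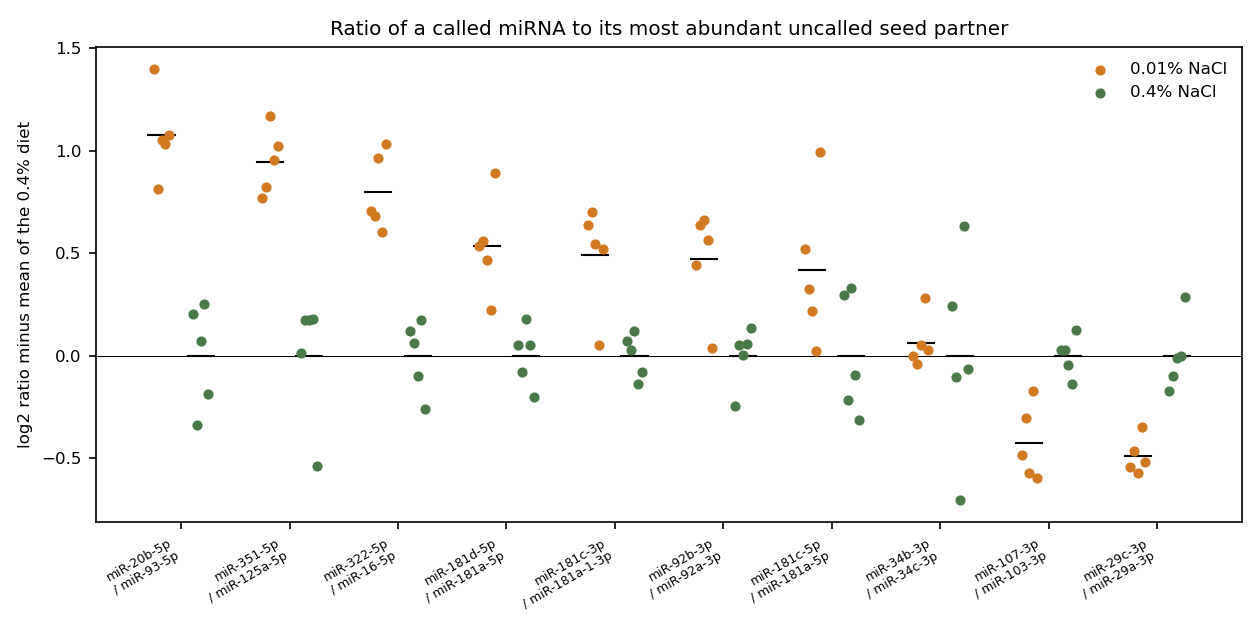
Log2 ratio of a called miRNA to its most abundant uncalled seed partner in each library, with the mean of the 0.4% diet set to 0. Points of the 0.01% diet (orange) stand left of those of the 0.4% diet (green), and black lines are means. In 6 of the 10 pairs no library of one diet reaches the other.

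Libraries differed in how strongly they took part. Among the 0.01% libraries, library 4 had the least of 27 of the 40 higher names and the most of 29 of the 47 lower names. Among the 0.4% libraries, library 5 had the least of 26 of the 40 higher names and the most of 31 of the 47 lower names. Without both, an alternative chosen after seeing the data, 70 names were called, 33 higher and 37 lower, and 67 of these were among the 87. On 0.01%, library 5 had the most of 21 of the 40 higher names and the greatest share of miR-10a-5p, 40.3% of its reads.

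The authors' deposited tables held their own comparison of these diets, by DESeq, DESeq2 and edgeR, with folds that run as 0.4% over 0.01%. At an adjusted p under 0.05 the authors' deposited table by DESeq called 51 names, of which 45 were among the 87 (51.7% of the 87 and 88.2% of theirs). The authors' deposited table by DESeq2 called 102 names and shared 81 (93.1% of the 87 and 79.4% of theirs). The authors' deposited table by edgeR called 94 names and shared 79 (90.8% of the 87 and 84.0% of theirs). For all 87 names the fold in each of the authors' deposited tables ran in the same biological direction as here.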

How the data were processed

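Small RNA libraries from total RNA of kidney cortex were sequenced on an Illumina instrument, per the labels' protocols. The authors deposited raw read counts per mature miRNA name. Tools listed in the submitters' processing notes are Bowtie, cutadapt and DESeq. The sources used here do not give mismatch, multi-match or strand settings, the miRNA database or the genome build. Deposited too were the authors' tables with log2 fold changes, p-values and adjusted p-values for pairs of diets. The tables held 90 further per-sample columns, which were not used.

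From the counts, names were filtered with filterByExpr, scaled with TMM and fitted with 3 diet means over the 15 libraries in edgeR 4.0.16 (quasi-likelihood test, robust, 12 residual degrees of freedom, R 4.3.3). The contrast was 0.01% minus 0.4% NaCl, with Benjamini-Hochberg adjustment over the 519 tested names and a threshold of 0.05. Fold changes are on edgeR's log2 scale with its default prior count, and the SE is the size of the fold change divided by the test's t-type statistic. The scripts were tested on simulated data. Library values and ratios were compared by exact two-sided permutation tests over 252 splits. Names were placed by RefSeq's GRCr8 miRNA table and joined into loci where they lay within 10 kb, and reverse complements shared at least 16 bases. Counts without molecular identifiers carry amplification error as well as counting error.

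Alternatives were DESeq2 1.42.0, limma 3.58.1 (voom), other scalings and filters, other sets of names, and each of the 15 libraries left out, those of the 4% diet among them. The members and lists were chosen with earlier results of these data known. Values in every library are given for the 10 greatest increases and decreases among called rat names with a mean of at least 10 scaled CPM, the greatest change at any level, and list members used as examples. Called names outside these are given by mean, and uncalled names only as abundant names, other arms, neighbours or seed partners of called ones.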

Additional observations from a re-analysis of the deposited data

Results flagged for a closer look

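Each diet's 5 values of every named miRNA and ratio were searched for a library that stood apart, with a gap to its neighbour of more than 0.71 of the whole range. Of 240 groups searched, 21 were flagged, and chance flags about 1 in 20 groups.

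Of these, 9 belonged to library 5 of the 0.4% diet. Its values were the top of the diet for miR-154-5p (3.74 scaled CPM), miR-376b-3p (9.59), miR-377-3p (3.90), miR-487b-3p (8.94) and miR-494-3p (17.4), all of the Dlk1-Dio3 region, and for miR-107-5p (2.76). They were the lowest for miR-187-3p (11.5), miR-214-3p (69.3) and the log2 ratio of miR-351-5p to miR-125a-5p (-2.20). Without this library 69 names were called, 29 higher and 40 lower, and miR-494-3p and miR-487b-3p kept their calls.

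On the 0.01% diet, library 4 had the most miR-203a-5p (15.96 scaled CPM) and miR-487b-3p (2.63) and the lowest value for the log2 ratio of miR-181c-3p to miR-181a-1-3p (0.20). Library 5 had the most miR-503-5p (11.9) and the most mmu-miR-676-5p, a mouse name (5.07), and the least miR-653-5p (47.8). The other 0.01% libraries flagged were library 1, the highest for miR-376b-3p (1.91), and library 2, the highest for miR-489-3p (15.7).

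On the 0.4% diet, library 3 had the most miR-379-5p (10.2 scaled CPM) and miR-31a-3p (3.01) and the least miR-653-3p (2.01), and library 1 had the most miR-203b-5p (144.3). What sets these libraries apart was not tested.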

How the results depend on the processing

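Scaling by library totals alone gave 25 higher and 79 lower names (24.0% of calls higher, against 46.0%) and moved the median of all names to -0.19, and keeping only names with a mean of at least 10 CPM gave 55 calls, 32 higher and 23 lower, from fewer names tested. Leaving out each library gave 69 to 107 calls, 29 to 56 higher and 39 to 54 lower, of which 68 to 87 were among the 87. The most came without library 5 of the 4% diet (107), and the fewest without library 1 of the 0.01% diet or library 5 of the 0.4% diet (69 each). The difference in total reads ran from 0.444 to 1.16 M reads with a library left out, in the share of miR-10a-5p from 4.84 to 8.72 points (8.68 without library 3 of the 0.4% diet), and passed only without library 2 of the 0.4% diet for reads and without library 3 for the share. DESeq2 called 115 names and limma-voom 79. With only the 2 diets compared, so that the 4% libraries did not enter the filter or the scaling, 495 names were tested. Of these 88 were called, 47 higher and 41 lower, and 76 of the calls were among the 87. Of the 87 calls, 65 were made in all 15 fits that left out a library. The 12 other settings did not all test every name. In every one of them that tested the name, 62 calls were made, and 60 calls met both conditions. In 0 calls did the sign change in any fit. The difference between diets in the log2 ratio of miR-34b-3p to miR-34c-3p ranged from -0.11 (without library 3 of the 0.4% diet) to 0.2222 with a library left out, and the cause of the reversal was not tested. Names at 1 to 10 scaled CPM had a median SE of 0.32 and those of 1000 or more 0.11, so smaller changes of low names could not be detected. No paired analysis was possible because the labels give no replicate numbers.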
